A study of Mus musculus with 4 samples.

Results

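Scavenger receptors are the surface and vesicle proteins with which macrophages take up modified lipoproteins, dead cells, haemoglobin complexes, glycoproteins and microbes. The 10 genes described here are Marco, Msr1, Cd36, Scarb1, Olr1, Cd163, Cd5l, Mrc1, Stab1 and Cd68, out of 25107 named genes on the array, and they were chosen by symbol or transcript. They are read by 16 of the array's 56605 probes, and 15 of these probes stood well above background somewhere. All 10 genes had such a probe, and 9 had a probe well above background on all 4 arrays, the exception being Cd163.

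Cells of 4 kinds were measured on 1 array each, with Cy3-labelled cRNA made from total RNA. They were Batf2-/- (knockout) macrophages given R848 at 100 ng/ml for 8 h, untreated knockout macrophages, wild-type macrophages given the same R848 treatment, and untreated wild-type macrophages. All came from bone marrow of male mice of the C57BL/6J strain, cultured with macrophage colony-stimulating factor. Batf2 encodes an AP-1 family transcription factor with a leucine zipper, and R848, or resiquimod, activates the endosomal receptor TLR7. The untreated cells are labelled 0 h, and no array holds cells left untreated for 8 h. The labels do not give the number of mice behind an array.

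With 1 array per group no group has a spread of its own, no test was made, the number of arrays limits the precision, and the spread between cultures was not measured. Each member probe had 1 spot per array. The only error available is the spread of probes spotted at least 10 times: over 289 such probes the median SD of a log2 difference was between 0.048 and 0.057 for the comparisons of 2 arrays. Over the 14 of these probes that lay under the array's 75th percentile it was between 0.13 and 0.16. Signals are given relative to each array's 75th percentile (a value of 1), and 2-fold is the threshold for calling a gene higher or lower. They are compared between arrays within a probe, not between probes. The arrays had between 60.6% and 71.4% of probes well above background, and no member spot lay in a bright area of an array or was marked as an outlier.

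All 10 macrophage markers, among them Adgre1, Csf1r and Lyz2, were well above background on all 4 arrays. The targeted gene Batf2 had a relative signal of 0.0428 in knockout cells with R848, which was not well above background, and 0.102 in untreated knockout cells, against 0.357 in wild-type cells with R848 and 0.123 in untreated wild-type cells. Where its probe lies relative to the deletion is not stated, so the untreated value does not check the label.

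The family is grouped by the structure and ligands of its members. Marco and Msr1 are collagen-like class A receptors, Cd36 and Scarb1 are class B receptors for lipids and lipoproteins, and Olr1 (LOX-1) is a lectin-like receptor for oxidised LDL. Cd163 takes up haemoglobin bound to haptoglobin, and Cd5l is a secreted protein built, like Cd163, from scavenger receptor cysteine-rich domains. Mrc1 is the mannose receptor, Stab1 an endocytic receptor of the stabilin class, and Cd68 a mucin-like protein of late endosomes and lysosomes.

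RefSeq promoters on build GRCm38.p6 were found for 8 of the 10 members. The 250 bases before the annotated start are shown for Marco and Olr1, which rose with R848, for Mrc1, which fell, for Cd5l, which was lower in the knockout in both conditions, and for Cd68, which shares with Olr1 a match to the AP-1 motif. Each is written 5′ to 3′ on the gene's strand, and capitals mark AP-1 (TGANTCA), PU.1 (GAGGAAG) and MAF (TGCTGA) matches on either strand.
Marco, chr1:120505025-120505274, - strand: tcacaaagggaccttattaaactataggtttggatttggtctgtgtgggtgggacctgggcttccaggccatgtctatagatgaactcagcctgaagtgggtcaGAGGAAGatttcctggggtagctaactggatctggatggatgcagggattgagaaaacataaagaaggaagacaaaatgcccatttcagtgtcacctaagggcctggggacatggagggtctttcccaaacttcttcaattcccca
Olr1, chr6:129507166-129507415, - strand: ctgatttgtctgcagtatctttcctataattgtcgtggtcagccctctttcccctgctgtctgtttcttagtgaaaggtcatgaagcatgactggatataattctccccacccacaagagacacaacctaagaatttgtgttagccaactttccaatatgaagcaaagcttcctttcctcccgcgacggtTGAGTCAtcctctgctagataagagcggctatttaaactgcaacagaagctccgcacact
Mrc1, chr2:14229164-14229413, + strand: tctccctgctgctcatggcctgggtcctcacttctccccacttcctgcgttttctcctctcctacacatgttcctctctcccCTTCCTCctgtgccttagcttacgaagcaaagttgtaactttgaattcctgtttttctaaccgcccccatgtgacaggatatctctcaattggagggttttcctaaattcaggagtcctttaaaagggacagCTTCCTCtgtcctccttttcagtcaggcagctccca
Cd5l, chr3:87357631-87357880, + strand: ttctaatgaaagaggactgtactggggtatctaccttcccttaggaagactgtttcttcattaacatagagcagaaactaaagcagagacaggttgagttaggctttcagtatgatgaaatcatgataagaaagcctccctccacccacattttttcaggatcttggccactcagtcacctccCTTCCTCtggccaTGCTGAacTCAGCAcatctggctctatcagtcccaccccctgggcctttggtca
Cd68, chr11:69666171-69666420, - strand: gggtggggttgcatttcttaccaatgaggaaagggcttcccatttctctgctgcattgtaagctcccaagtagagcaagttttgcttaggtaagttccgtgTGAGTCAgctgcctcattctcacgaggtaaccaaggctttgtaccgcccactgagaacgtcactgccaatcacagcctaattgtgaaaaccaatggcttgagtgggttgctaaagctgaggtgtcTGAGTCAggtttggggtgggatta
The AP-1 motif was found in 2 of the 8 member promoters, once in Olr1, where it begins 60 bases before the start, and at 149 and 24 bases in Cd68. It is present in 6.75% of the 32851 RefSeq promoter windows of that length. The PU.1 motif was found in 3 member promoters (Marco, Mrc1 and Cd5l), against 10.6% of all windows, and the MAF motif in 3 (Cd5l, Cd36 and Stab1), against 16.1%. The interferon response element, searched as GAAA, any 2 bases and GAAA, was found in none of the 8 (2.98% of all windows). A loose form of the NF-kB motif, GGG and CC with any 5 bases between them, was found in 4 of the 8, namely Marco, Mrc1, Cd36 and Cd163 (45.8% of all windows). Matches of different motifs overlapped in 0 cases. These matches describe letters in a window and are not read as binding sites.

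The response to R848 compared cells given R848 for 8 h with untreated cells at 0 h in each genotype. The effect of R848 and any change over 8 h in culture cannot be told apart. Marco and Olr1 rose and Mrc1 fell in both genotypes. Stab1 fell past 2-fold in knockout cells and Cd163 in wild-type cells. In knockout cells the Cd163 difference was only bounded, at 1.95-fold lower or more, and the other members stayed under 2-fold. In knockout cells 2 of 10 members were at least 2-fold higher, where 6.84% of all genes measured were, and 2 were at least 2-fold lower (6.58% of all genes), Cd163 not counted. In wild-type cells 2 of 10 were higher (6.19% of all genes) and 2 lower (7.01% of all genes). The median log2 difference of the members was -0.54 in knockout cells and -0.40 in wild-type cells, against -0.059 and -0.029 over all genes. The median joins members that moved opposite ways.

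**Figure D1:**
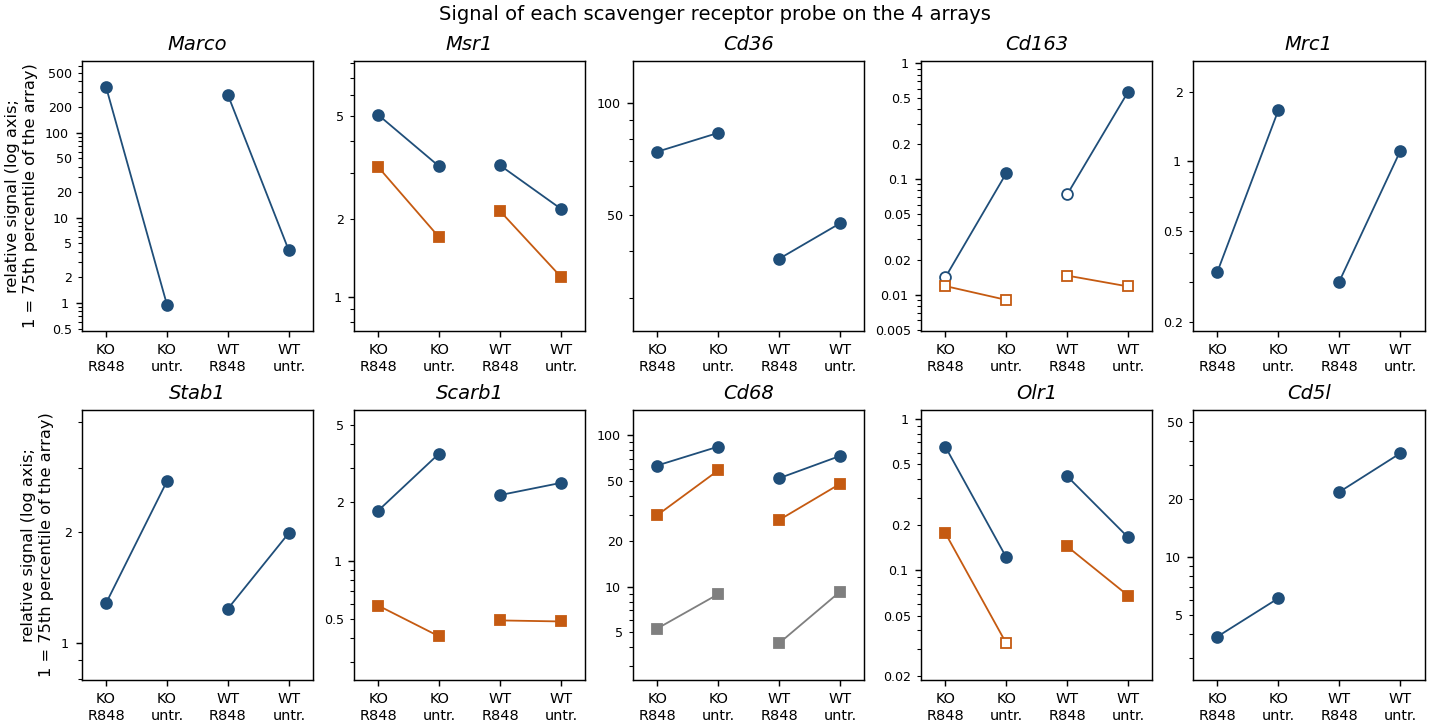
Relative signal (log axis, 1 = the 75th percentile of the array) of all 16 scavenger receptor probes on the 4 arrays; each gene has its own axis, circles are the brightest probe of a gene, squares its other probes, and open symbols were not well above background. Marco reached 344 in knockout cells and 277 in wild-type cells with R848, and the Cd5l signal was lower on both knockout arrays than on either wild-type array.

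Marco, which binds bacteria and unopsonised particles, had a relative signal of 344 in knockout cells with R848 and 0.951 in untreated knockout cells, against 277 in wild-type cells with R848 and 4.13 in untreated wild-type cells. Both stimulated arrays were far above both untreated arrays, and the untreated knockout array was the lowest of the 4. The rise was 362-fold in knockout cells, the third largest of the 18352 genes measured on both knockout arrays, and 67.2-fold in wild-type cells, rank 10 of 17357.

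Olr1 had 0.656 in knockout cells with R848 and 0.122 in untreated knockout cells, against 0.418 in wild-type cells with R848 and 0.165 in untreated wild-type cells. Both stimulated arrays were above both untreated arrays. The rise was 5.39-fold in knockout cells and 2.53-fold in wild-type cells. The second, dimmer probe of Olr1 rose at least 4.01-fold in knockout cells, where its untreated signal was not well above background, and 2.11-fold in wild-type cells. Olr1 was dim, and the normexp background correction, which adds an offset of 50 to every signal, gave its response as 1.36 on the log2 scale in knockout cells, against 2.43 without it, and as 0.72 in wild-type cells, under 2-fold.

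Msr1, the class A receptor for acetylated LDL, had 5.05 in knockout cells with R848 and 3.20 in untreated knockout cells, against 3.22 in wild-type cells with R848 and 2.19 in untreated wild-type cells. The stimulated array was the higher of each genotype, but the stimulated wild-type array and the untreated knockout array were close. The log2 differences of its 2 probes with R848 were 0.66 and 0.90 in knockout cells and 0.56 and 0.84 in wild-type cells, all under 2-fold.

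Mrc1 had 0.332 in knockout cells with R848 and 1.67 in untreated knockout cells, against 0.301 in wild-type cells with R848 and 1.11 in untreated wild-type cells. Both stimulated arrays lay below both untreated arrays. It fell 5.02-fold in knockout cells and 3.68-fold in wild-type cells.

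Stab1 had 1.28 in knockout cells with R848 and 2.76 in untreated knockout cells, against 1.24 in wild-type cells with R848 and 1.99 in untreated wild-type cells. Its stimulated signals were close to each other and below both untreated signals. It fell 2.15-fold in knockout cells, and the wild-type difference was 1.61-fold downward, under the threshold. The knockout fall was under 2-fold with normexp (-0.99 on the log2 scale) and with median centring (-0.96).

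Cd163 was measurable on the fewest arrays. Its main probe had 0.0141 in knockout cells with R848, not well above background, and 0.112 in untreated knockout cells, against 0.0735 in wild-type cells with R848, not well above background, and 0.567 in untreated wild-type cells. It could thus be measured in untreated cells of both genotypes and not in stimulated cells. It fell at least 7.71-fold in wild-type cells and was at least 1.95-fold lower with R848 in knockout cells, where the lowest signal well above background, 0.0576, sets the bound. Under normexp the wild-type bound was -1.22 on the log2 scale in place of -2.95, and the knockout bound -0.31 in place of -0.96. With no filter and no bounds the knockout difference was -2.99. A second Cd163 probe was not well above background on any array.

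Cd36 and Cd68 were high on all 4 arrays, and Cd36 with R848 stayed within 1.25-fold of its untreated signal. Cd36 had 74.0 in knockout cells with R848 and 83.1 in untreated knockout cells, against 38.1 in wild-type cells with R848 and 47.5 in untreated wild-type cells. For Cd68 the brightest probe gave 63.3 and 84.4 in knockout cells with R848 and untreated, against 52.2 and 73.2 in wild-type cells with R848 and untreated. All 3 Cd68 probes were lower with R848, by 0.41 to 0.98 on the log2 scale in knockout cells and by 0.49 to 1.13 in wild-type cells. Of these 6 differences 1 passed 2-fold, that of the dimmest probe in wild-type cells (2.19-fold).

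The 2 Scarb1 probes, which are annotated to different transcript variants, went opposite ways. The brighter probe, for variant 3, had 1.81 in knockout cells with R848 and 3.56 in untreated knockout cells, against 2.17 in wild-type cells with R848 and 2.51 in untreated wild-type cells. The probe for variant 1 had 0.588 in knockout cells with R848 and 0.408 in untreated knockout cells, against 0.493 in wild-type cells with R848 and 0.487 in untreated wild-type cells. With R848 the knockout differences were therefore -0.98 and 0.53 on the log2 scale, and the wild-type differences -0.21 and 0.018. The first of these, 1.97-fold, passed 2-fold under quantile normalization (-1.03), with the percentile taken over probes well above background on all arrays (-1.04) and in the authors' table (-1.01).

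Cd5l, a macrophage survival factor, had 3.88 in knockout cells with R848 and 6.13 in untreated knockout cells, against 21.8 in wild-type cells with R848 and 34.6 in untreated wild-type cells. Both knockout arrays were below both wild-type arrays, and in each genotype the stimulated array was the lower. With R848 the log2 difference was -0.66 in knockout cells and -0.67 in wild-type cells.

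**Figure D2:**
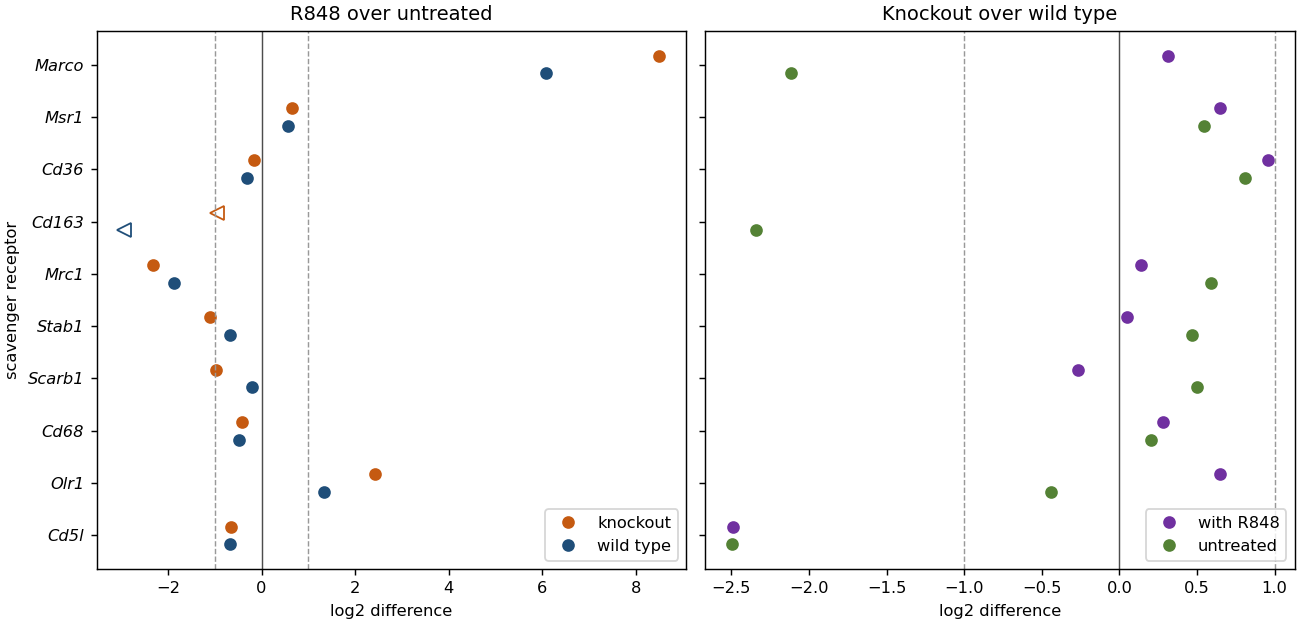
Log2 differences of the brightest probe of each scavenger receptor, R848 over untreated (left; knockout orange, wild type blue) and knockout over wild type (right; with R848 purple, untreated green); dashed lines mark 2-fold and open triangles are bounds. Marco at 8.50 and 6.07 lies far from the other members on the left, and Cd5l at -2.49 and -2.50 is the only member past 2-fold in both conditions on the right, among the 9 measured in both.

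Knockout and wild-type cells were compared with R848 and without it, which shows where the absence of Batf2 goes with a different level. Cd5l was lower in the knockout in both conditions, and Marco and Cd163 were lower in the untreated knockout. With R848, 0 of the 9 members measured were at least 2-fold higher (2.34% of all genes) and 1 was lower (2.45% of all genes). Untreated, 0 of 10 were higher (2.8% of all genes) and 3 were lower (3.18% of all genes). The median log2 difference of the members was 0.28 with R848 and 0.34 untreated, against 0.037 and 0.056 over all genes.

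Cd5l was 5.62-fold lower in knockout cells than in wild-type cells with R848 and 5.64-fold lower untreated. These log2 differences stayed between -2.54 and -2.42 under the alternatives run. Marco was 4.34-fold lower in untreated knockout cells (0.951 against 4.13), whereas with R848 it was 1.24-fold higher (344 against 277). Cd163 was 5.06-fold lower in untreated knockout cells (0.112 against 0.567), and with R848 it was not well above background in either genotype, so it has no fold there. Under normexp the untreated Cd163 difference was -1.10 on the log2 scale in place of -2.34.

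Cd36 lay in the other direction. It was 1.94-fold higher in knockout cells with R848 (74.0 against 38.1) and 1.75-fold higher untreated (83.1 against 47.5). Both knockout arrays were above both wild-type arrays. The difference with R848 passed 2-fold under normexp (1.01 on the log2 scale). Msr1 was 1.57-fold higher with R848 and 1.46-fold higher untreated by its brightest probe, and its second probe gave 1.48-fold and 1.42-fold.

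Untreated, the log2 difference of knockout minus wild type was 0.59 for Mrc1 and 0.47 for Stab1. With R848 it was 0.14 for Mrc1, under the technical SD of 0.16 of probes below the 75th percentile. For Stab1 it was 0.050, under the technical SD of 0.052 over all replicated probes. Cd68 was 1.21-fold higher in the knockout with R848 and 1.15-fold higher untreated by its brightest probe. Its other probes gave 0.11 and 0.32 on the log2 scale with R848, and 0.30 and -0.054 untreated. Olr1 was 1.57-fold higher in the knockout with R848 and 1.35-fold lower untreated. For Scarb1 the brighter probe gave -0.27 on the log2 scale with R848 and 0.50 untreated, and the other probe 0.25 and -0.25.

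**Figure D3:**
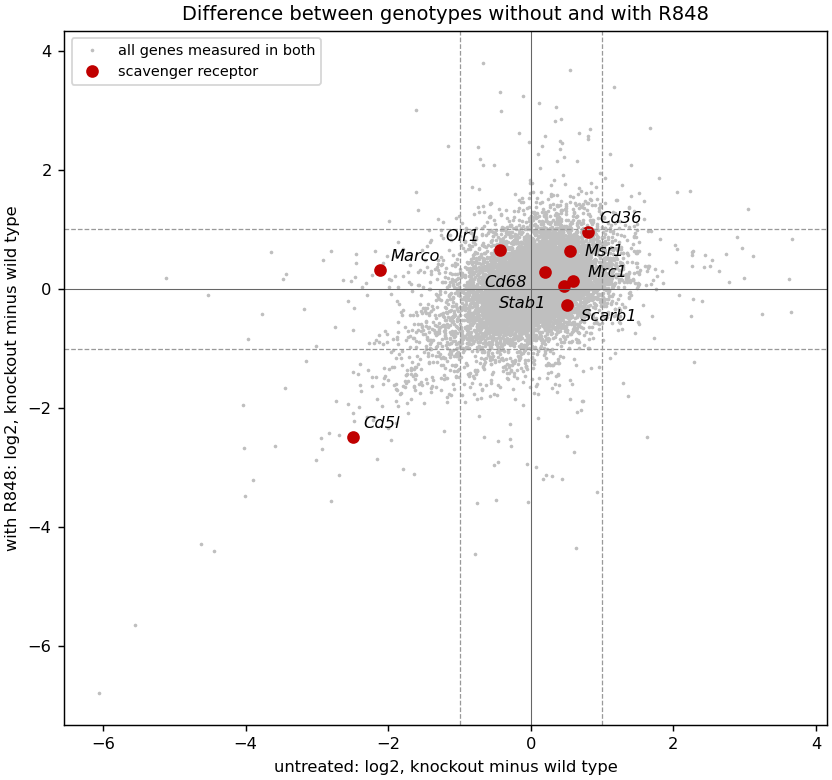
Log2 difference of knockout minus wild type, untreated on the x axis and with R848 on the y axis, for all genes measured in both conditions (grey) and 9 scavenger receptors (red; Cd163 has no value with R848); dashed lines mark 2-fold. Cd5l lies at -2.50 and -2.49, and Marco at -2.12 untreated and 0.31 with R848.

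Markers of other cell types moved with the genotype too. Untreated, 7 of 9 basophil and mast cell markers were at least 2-fold lower in the knockout (Mcpt8 -5.56 and Prss34 -4.44 on the log2 scale), and their summed relative signal was 2.45 in knockout cells against 22.8 in wild-type cells. With R848 6 of 8 were lower, the sums were 2.65 in knockout cells and 13.4 in wild-type cells, and 4 of the 9 in knockout cells were well above background, against 8 in wild-type cells. For 11 granulocyte precursor markers, 7 of them lower untreated, the sums were 325 in knockout cells and 620 in wild-type cells untreated, and 300.5 in knockout cells against 476 in wild-type cells with R848, where 6 were lower. The 10 monocyte and dendritic cell markers summed to 60.1 in knockout cells and 86.7 in wild-type cells untreated. Of these sums Ly6c2 made up 5.88 in knockout cells and 33.3 in wild-type cells. Untreated, 2 of 10 were at least 2-fold lower in the knockout, Ly6c2 at -2.50 and Ccr2 at -1.97. In the other direction 1 was at least 2-fold higher, Itgax at 1.47, and the list median was -0.093. With R848 the sums were 71.3 in knockout cells and 109 in wild-type cells, of which Ly6c2 made up 12.3 and 52.1. There 2 of 8 were lower and 0 higher. The 10 macrophage markers summed to 876 in knockout cells and 742 in wild-type cells untreated, and to 895 in knockout cells and 776 in wild-type cells with R848. Platelet and megakaryocyte markers summed to 46.0 in knockout cells and 80.1 in wild-type cells untreated, and 4 of 6 were lower. With R848 they summed to 90.3 in knockout cells and 73.6 in wild-type cells, of which Pf4 made up 75.3 in knockout cells and 53.6 in wild-type cells. The median log2 difference of the list was then -0.27, with 0 of 6 past 2-fold. Of the endothelial markers Tek, Lyve1 and Emcn were not well above background on any array, and the list summed to between 2.24 and 5.47. Untreated, 2 of the 4 endothelial markers measured were at least 2-fold lower in the knockout, among them Pecam1 at -1.65. With R848 1 of 5 was lower, Kdr at -1.78, and 0 were higher in either condition. B and T cell markers summed to between 6.18 and 7.19, and adipocyte and fibroblast markers to between 9.17 and 15.9. Of the 7 B and T cell markers measured, 1 was at least 2-fold lower in the knockout in each condition. These were Cd79b at -1.09 untreated and Cd8a at -2.27 with R848, and 0 were higher. Of 8 adipocyte and fibroblast markers 1 was higher in the untreated knockout, by a bound, and 0 were lower. With R848 0 of 6 passed 2-fold. The part of these cells in the Cd5l, Cd163 and Marco differences was not tested. In bulk RNA, fewer cells of a type and less RNA per cell cannot be told apart.

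The difference between the responses, knockout minus wild type, was at least 2-fold higher for 2 of the 9 members well above background on all 4 arrays, and at least 2-fold lower for 0. Of all genes, those with a dim array set to its detection limit included, 3.16% were higher and 2.71% lower. This is the same quantity as the genotype difference with R848 minus that without it, so it adds no new measurement. Marco stood at 2.43 on the log2 scale and Olr1 at 1.09, which was 0.64 under normexp, the second Olr1 probe at 0.93 with its untreated knockout signal set to the detection limit. Cd163 stood at 1.99, but both of its stimulated signals were not well above background, and that number is neither a measurement nor a bound. The responses of Cd5l differed by 0.0059, those of Cd68 by 0.075, those of Msr1 by 0.10 and those of Cd36 by 0.15. The value of Cd68 is that of its brightest probe, and its other probes gave -0.19 and 0.38. The technical SD of the difference between responses was 0.073 over all replicated probes. Over the 14 of these probes below the 75th percentile it was 0.23. Mrc1 stood at -0.45, Stab1 at -0.42 and the brighter Scarb1 probe at -0.77.

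**Figure D4:**
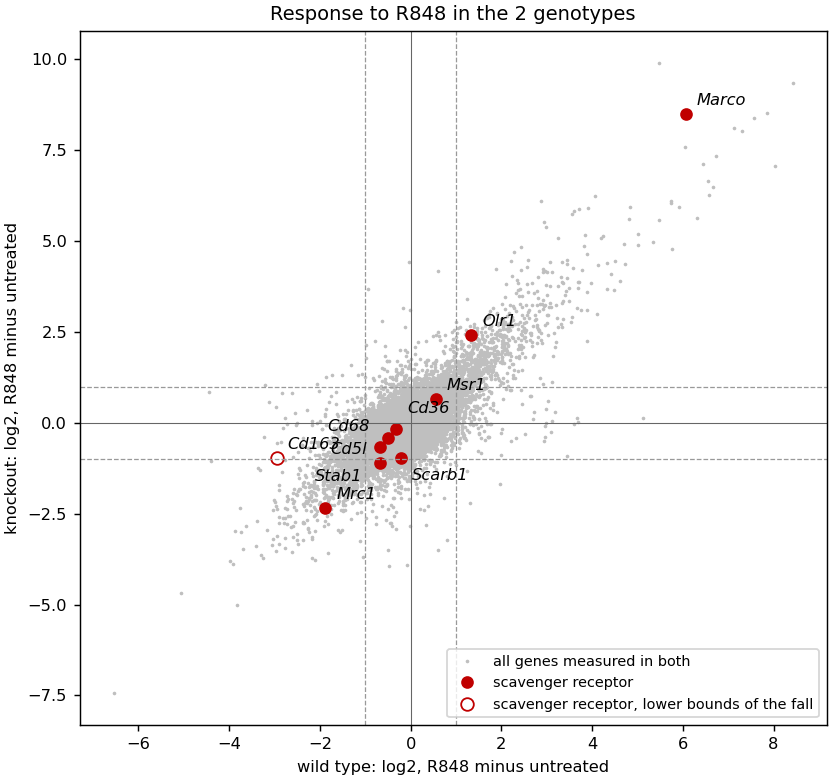
Log2 difference of R848 minus untreated in wild-type cells (x axis) and knockout cells (y axis) for all genes measured in both (grey) and the 10 scavenger receptors (red; the open circle is Cd163, a bound in both genotypes); dashed lines mark 2-fold. Marco at 6.07 and 8.50 lies among the highest genes, and Cd68, Cd36 and Cd5l lie within 2-fold on both axes.

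Genes with the most similar pattern over the 4 arrays were listed for the 3 members that varied most among the 9 well above background on all 4 arrays, which leaves out Cd163, by the root mean square difference of log2 signals centred on each gene's mean, among 17142 genes well above background on every array. Nearest to Marco were Clec4e, the C-type lectin Mincle, at a distance of 0.45, the itaconate-producing enzyme gene Acod1 at 0.55 and the cytokine gene Il1b at 0.62. All of them rose in both genotypes, Clec4e by 7.58 in knockout cells and 6.04 in wild-type cells on the log2 scale. The untreated log2 difference of knockout minus wild type was -2.12 for Marco, against -1.04 for Clec4e, -0.63 for Acod1 and -0.40 for Il1b. Nearest to Cd5l were Ndrg2 at 0.10, the progenitor transcription factor gene Myb at 0.15 and Paqr9 at 0.19. Their log2 differences of knockout minus wild type ran from -2.48 to -2.22 with R848 and from -2.69 to -2.48 untreated. Nearest to Mrc1 were the interleukin-7 receptor gene Il7r at 0.037, the growth factor gene Hgf at 0.072 and the xanthine dehydrogenase gene Xdh at 0.076. Their log2 differences with R848 ran from -2.49 to -2.36 in knockout cells and from -2.07 to -1.76 in wild-type cells. All these genes were picked on the same values of the 4 arrays, so their likeness to the 3 members follows from the choice.

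Of 23 other scavenger receptors outside the 10, 21 were measured in each response. In knockout cells 3 were higher and 2 lower with R848 (median -0.057), and in wild-type cells 2 were higher and 3 lower (median 0.067). Cd14, the coreceptor for lipopolysaccharide, rose by 2.04 in knockout cells and 2.36 in wild-type cells. The lysosomal class B member Scarb2 stood at -1.41 in knockout cells and -1.80 in wild-type cells, and Stab2, which is also among the endothelial markers, at -1.49 and -1.50. Between genotypes 0 of 20 passed 2-fold with R848, and untreated 1 of 22 was lower and 0 were higher. Of all genes, 6.84% were higher and 6.58% lower with R848 in knockout cells, and 6.19% and 7.01% in wild-type cells. Between genotypes 2.34% of all genes were higher in the knockout and 2.45% lower with R848, and 2.8% and 3.18% untreated. The same shares of all genes stand beside the counts of the related lists that follow.

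Genes of lipid uptake and storage, which handle what Cd36 and the class A receptors bring in, were lower with R848 in 6 of 16 cases and higher in 2 in knockout cells (median -0.67), and likewise 6 and 2 of 16 in wild-type cells (median -0.81). The fatty acid binding protein Fabp4 stood at -2.05 in knockout cells and -2.20 in wild-type cells, and the neutral cholesterol ester hydrolase Nceh1 at -2.37 and -1.76. The acyl-CoA synthetase Acsl1 rose by 3.18 in knockout cells and 2.45 in wild-type cells, and the caveolar protein gene Cav1 by 3.11 and 2.60. Between genotypes 0 of 16 passed 2-fold in either condition. The cholesterol exporter Abca1 stood highest, at 0.88 with R848 and 0.74 untreated, on the same side as Cd36.

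Haemoglobin and haem clearance genes were listed because Cd163 takes up haemoglobin bound to haptoglobin. With R848 they were higher in 6 of 11 cases in knockout cells (median 1.07, 1 lower) and in 5 of 11 in wild-type cells (median 0.86, 1 lower). Haptoglobin, Hp, rose by 2.35 in knockout cells and 2.07 in wild-type cells, and Spic, a transcription factor of iron-recycling macrophages, by 2.22 and 3.20. The iron exporter Slc40a1 stood at -1.26 in knockout cells and -1.27 in wild-type cells. In the knockout Hp was lower by 1.35 with R848 and by 1.63 untreated, and Spic by 1.61 and 0.63.

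Collagen and glycoprotein turnover genes, linked to Mrc1, had medians of -0.61 in knockout cells (1 of 9 higher, 2 lower) and -0.52 in wild-type cells (1 of 8 higher, 1 lower) with R848. The membrane metalloprotease Mmp14 rose by 3.16 in knockout cells and 3.66 in wild-type cells. Untreated, the urokinase gene Plau and the cathepsin K gene Ctsk were higher in the knockout by 1.35 and 1.28. Alternative activation genes, with which Mrc1 and Cd163 are often grouped, had 0 of 12 higher and 2 lower in knockout cells (median -0.21), and 1 of 13 higher and 1 lower in wild-type cells (median 0.21). The lectin Clec10a fell by 1.70 in knockout cells and by 2.21 in wild-type cells. In untreated knockout cells 3 of 13 were lower, among them Clec10a at -1.47 and the chitinase-like gene Chil3 at -1.02, and 0 were higher. With R848 2 of 12 were lower in the knockout and 1 was higher, the beta-glucan receptor Clec7a at 1.51, which stood at 0.93 untreated.

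**Figure D5:**
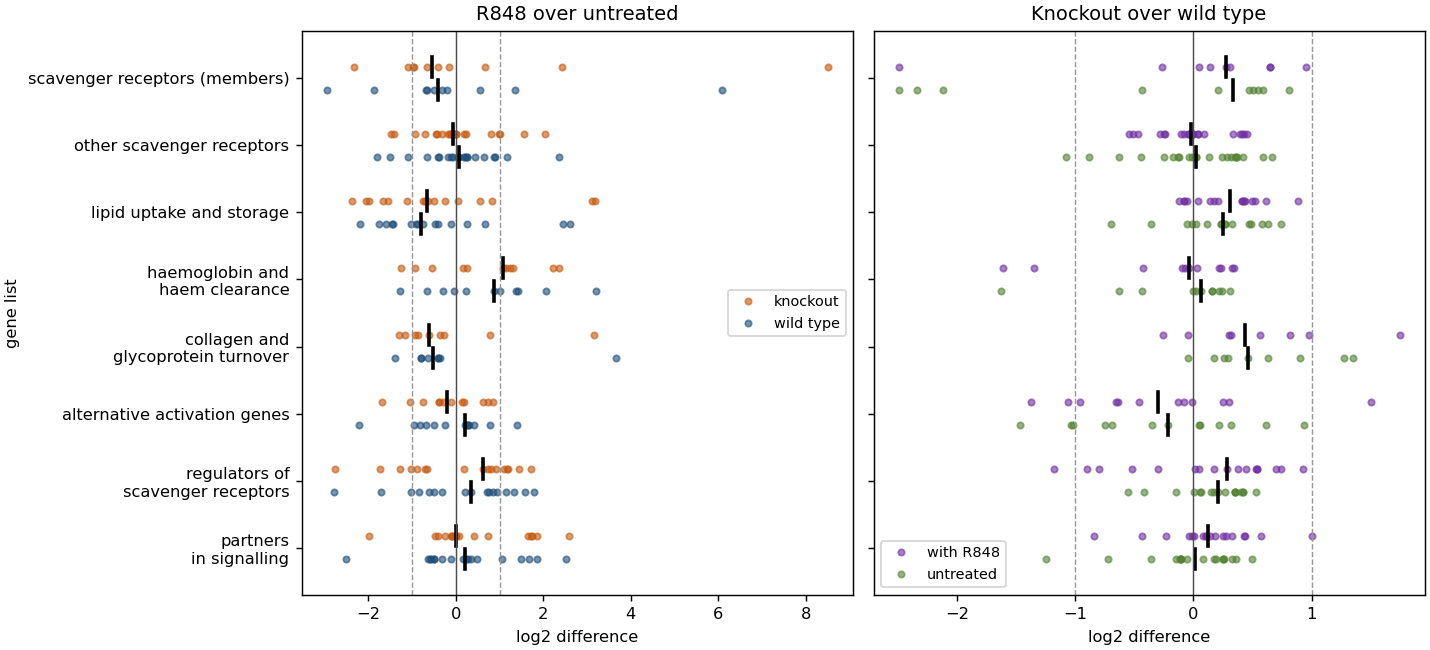
Log2 differences of single genes (dots) in the scavenger receptors and 7 related gene lists, R848 over untreated (left) and knockout over wild type (right), with black bars at the list median and dashed lines at 2-fold; bounds are drawn at their bound. The haemoglobin and haem clearance list has its medians at 1.07 and 0.86 on the left, and the lipid uptake and storage list at -0.67 and -0.81.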

How the data were processed

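Spots were quantified in Agilent Feature Extraction (version 11.5.1.1), per the submitters' processing notes and the file headers. The deposited processed signal is an intensity that, per the file headers, had a background and spatial trend removed within the array, on a probe grid annotated to mm9. The flags for outliers, saturation and well above background are other values that the authors deposited per spot. All 4 arrays lie on 1 slide. A second deposited table holds scaled intensity for 39374 spots, equal to the processed signal times 1 factor per array (3.72 to 4.13) within 1% for 100.0% of the spots. The sources used here do not state what sets these factors.

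Here log2 of the processed signal was centred on each array's 75th percentile over 56605 probes (Python 3.11.15, numpy 2.4.6, pandas 2.3.3, scipy 1.17.1). Outlier spots were left out (70 to 115 per array), no spot was saturated, and spots of 1 probe were averaged. A probe was well above background where at least 0.5 of its spots were marked so, and entered a comparison when that held on at least 1 array compared. A dim array was set to its lowest value well above background, or to the probe's own where higher, giving "at least N-fold" or "lower bounds". A gene was taken at its brightest such probe. Of 56605 probes 40458 were named, through the authors' table and the RefSeq gene table of GRCm38.p6, and 20628 genes were well above background somewhere.

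Each group has 1 array, so the groups were compared without a test. A limma fit of additive genotype and treatment effects, which would take the difference between responses as error, was not run. Differences were called at 2-fold. The functions returned known changes in simulated arrays. Normexp (limma 3.58.1, R 4.3.3) used the median spot signal in place of the planned mean spot signal, which was not used here. The 10 members and all gene lists were chosen with earlier results of these data known. In each other list the 2 highest and 2 lowest genes measured on all arrays compared are named, apart from some that are not reported here, and for the 3 members that varied most among those well above background on all 4 arrays, the 3 genes of nearest pattern. The alternatives were other background correction, scaling, filters, probe rule, outlier spots, bright areas (local median over windows of 5 by 5 spots shifted by over 0.3 log2), the authors' table and a 1.5-fold threshold.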

Additional observations from a re-analysis of the deposited data

Results flagged for a closer look

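For 3 members the difference between genotypes went opposite ways without and with R848. In both conditions it exceeded the median technical SD over all replicated probes, 0.052 with R848 and 0.050 untreated. Over the 14 of these probes below the 75th percentile that SD was 0.16 with R848 and 0.15 untreated. Each value rests on 1 array per group, and the difference between the conditions was not tested.

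Marco was 0.31 higher in the knockout than in wild type with R848 and 2.12 lower untreated (log2 difference -2.12), so the 2 differences lie 2.43 apart on the log2 scale. Olr1 stood at 0.65 with R848 and -0.44 untreated, 1.09 apart. Its untreated difference ran from -0.53 to -0.19 under the alternatives. Scarb1, by its brighter probe, stood at -0.27 with R848 and 0.50 untreated, a shift of -0.77, and its other probe shifted the other way, by 0.51. The Scarb1 difference with R848 ran from -0.31 to -0.0063 under the alternatives.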

How the results depend on the processing

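Of the 483 alternative values of single members, 375 moved by less than the technical SD, 107 by more, and 1 changed the sign of a value past 2-fold: the difference between responses of Cd163 was -0.0445 with no filter and no lower bounds, in place of 1.99, where both stimulated signals are below the detection limit. The difference between responses of Cd5l, at 0.0059, also changed sign with median centring and in the authors' table. Counts of members past 2-fold kept within 1.5 times of the main count in 96 of 110 cases. The rest follow. Members lower with R848 in knockout cells were 2, but 1 under normexp and with median centring, 4 with the 75th percentile over probes well above background on all 4 arrays and 5 at 1.5-fold. In wild-type cells 1 member was higher in place of 2 under normexp. Lower there were 1 in the authors' table and 1 under the filter that asks for background to be exceeded on every array compared, both without a Cd163 value, and 4 at 1.5-fold, in place of 2. Between genotypes with R848, 1 member was higher under normexp and 3 at 1.5-fold in place of 0, and 2 were lower with no filter in place of 1. Untreated, 2 were higher at 1.5-fold in place of 0. For the difference between responses 1 was higher under normexp in place of 3, Cd163 at its detection limit included, and 1 lower at 1.5-fold in place of 0.

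Counts over all genes (440 to 1357 per comparison and direction) moved by over 1.5 times in 30 of 110 cases. They ran from 102 to 810 under normexp, from 1210 to 3142 at 1.5-fold, and in 8 comparisons and directions from 839 to 2279 with no filter. Under the filter on every array compared, the genes higher in the knockout numbered 259 in place of 440 with R848 and 323 in place of 569 untreated. Median centring raised the median of all genes by 0.14 in the knockout response and 0.16 in the wild-type response, and gave 63.1% and 61.0% of called genes as higher, in place of 51.0% and 46.9%. Between genotypes the share higher was 60.2% in the authors' table and 62.1% with no filter in place of 48.9% with R848, and 33.6% under normexp in place of 46.8% untreated. No paired analysis was possible because each group has 1 array, and the values come from no test. The labels also give no replicate numbers, and a fit with genotype as a block was not run. Dim signal limits Cd163 and Olr1, and 1 spot per probe and array limits every member.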

Other observations

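Transcription factors known to act on macrophage scavenger receptor genes moved with R848 in both directions. In knockout cells 5 of 17 were higher and 4 lower (median 0.62), and in wild-type cells 4 were higher and 3 lower (median 0.35). The basic helix-loop-helix factor Bhlhe40 stood at -1.72 in knockout cells and -1.71 in wild-type cells on the log2 scale. The sterol receptor Nr1h3 rose by 1.44 in knockout cells and 1.78 in wild-type cells. Between genotypes 1 of 17 passed 2-fold with R848, the lipid-sensing receptor Pparg at -1.18, and 0 untreated, where Pparg stood at -0.42.

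Signalling partners of the receptors had 5 of 18 higher and 1 lower with R848 in each genotype. Tlr2, with which Cd36 cooperates, rose by 2.57 in knockout cells and 2.51 in wild-type cells, and the apoptotic cell receptor Mertk stood at -1.99 in knockout cells and -2.50 in wild-type cells. Between genotypes 1 of 18 was lower in untreated knockout cells, the tetraspanin Cd81 at -1.25, and 0 were higher. With R848 1 was higher in the knockout, Mertk with a relative signal of 0.545 in knockout cells and 0.272 in wild-type cells, and 0 were lower. That Mertk difference, 2.004-fold, lies at the threshold.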
